A study of Mus musculus with 6 samples.

Results

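The SLAM receptors of the surface of lymphocytes and the adaptor SAP, which carries their signals, were compared between regulatory T (Treg) cells with and without the transcription factor Batf. The members were 7 genes: Sh2d1a, which encodes SAP, and the receptor genes Slamf1, Slamf6, Slamf7, Ly9, Cd84 and Cd48. They were taken as the probe sets of the array that the platform annotation gives to 1 of these genes and to no other, which yielded 12 of 45037 probe sets that are not controls, and 7 of 18193 genes. All 7 members were measured, and no filter on low values was applied. Expression was measured on 3 arrays of Batf+/+ and 3 arrays of Batf-/- Treg cells. Both genotypes were C57BL/6 mice that carry FoxP3hCD2, a human CD2 reporter expressed with Foxp3, and the cells were taken as CD4+hCD2+ cells from lymph node and spleen, without culture or treatment. The labels give Batf-/- as the genotype of the mice and not of the Treg cells alone, and they state neither age, sex nor whether animals were pooled. The replicates are called triplicates without a statement that each is a separate mouse, so the p-values speak only of the spread among these arrays, part of which may be technical.

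SLAM receptors belong to the immunoglobulin superfamily and sit on T cells, B cells and other cells of the blood. Most of them bind a copy of themselves on a neighbouring cell, whereas CD48 pairs with the receptors CD2 and 2B4. The tails of most members hold tyrosine switch motifs that bind SAP, a small protein made of little more than an SH2 domain, and SAP brings in the kinase Fyn. Without SAP the same motifs recruit inhibitory phosphatases. SAP is known for its role in lasting contacts between T and B cells, in follicular helper T cells and in the development of NKT cells, and its loss in humans causes X-linked lymphoproliferative disease.

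Levels are given on the log2 scale, where 0 is the middle value of the 3 Batf+/+ arrays for that probe set. They show how a gene differed between arrays and not how abundant its transcript was, so levels of different genes cannot be ranked, and the presence of Treg markers or the absence of markers of other cells cannot be read from them. Batf itself was at -0.13, 0 and 0.14 on Batf+/+ arrays 1, 2 and 3 and at -3.13, -3.16 and -2.37 on the Batf-/- arrays, which follows the genotype labels. The position of its 1 probe set against the deletion was not examined. Over all genes the median log2 difference was 0.0047. Precision is limited by there being 3 arrays per genotype.

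SAP was the member that fell without Batf, and the 6 SLAM receptor genes did not pass the test in either direction. Sh2d1a was 1.95-fold lower in Batf-/- Treg cells, whereas the 6 receptor genes had log2 differences between -0.32 and 0.17. Of the 7 members 1 was called lower and 0 higher by limma at an adjusted p below 0.05, where 0.83% of all genes were called lower and 0.313% higher. The members had a median log2 difference of -0.23, and 5 of 7 lay below 0, against 8761 of 18193 genes. In a bulk sample, fewer cells of a type and less RNA per cell cannot be told apart.

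Sh2d1a levels were 0.17, -0.07 and 0 on Batf+/+ arrays 1, 2 and 3. They were -0.95, -1.04 and -0.80 on Batf-/- arrays 1, 2 and 3. The genotypes did not overlap, and the gap between the lowest Batf+/+ and the highest Batf-/- array was 0.73, larger than the range within either genotype (0.24 in both). The log2 difference was -0.96 ± 0.10 (SE, n = 3 arrays per genotype, 95% interval -1.18 to -0.75, limma adjusted p = 0.00174). By size it was the 52nd of the 151 genes that were lower, and by unadjusted p the 40th of all 18193 genes. The gene rests on the single probe set 1449393_at. Tested among all 45037 probe sets, that probe set had an adjusted p of 0.00941, which was 0.0554 without Batf+/+ array 1 and 0.0652 after quantile normalization. Quantile normalization forces the same spread on all arrays, although the values centred on the Batf+/+ median spread less on the Batf+/+ arrays. Among all genes, the adjusted p stayed below 0.05 in the 12 settings tried, leaving out each array included, with a highest value of 0.0308.

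**Figure D1:**
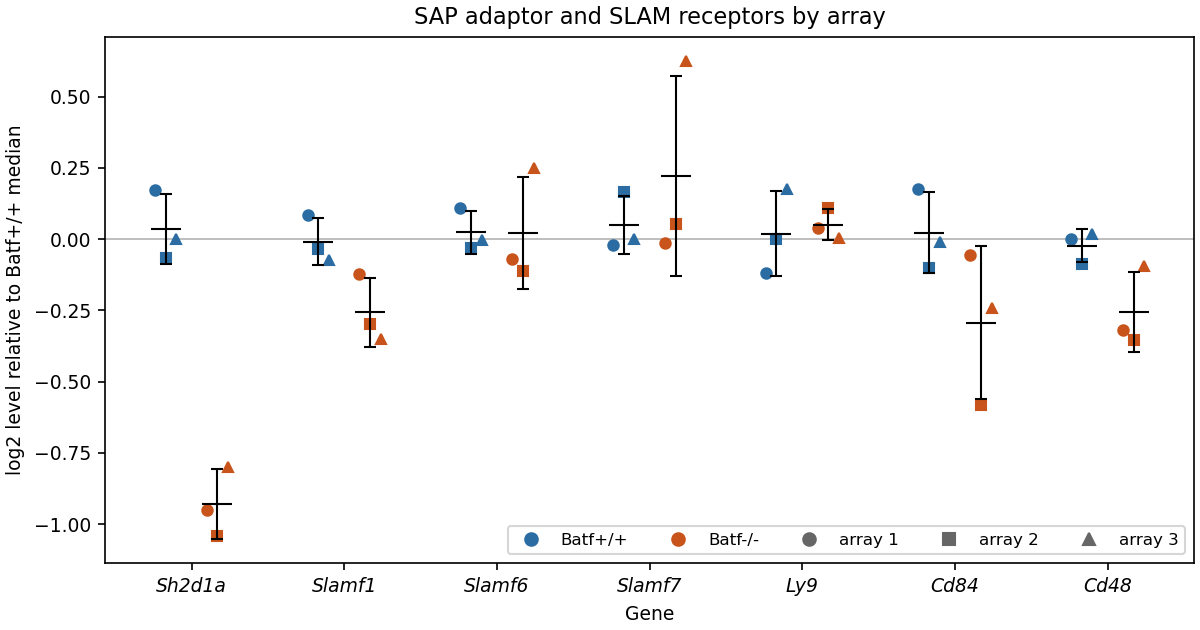
Log2 level of each member gene relative to the Batf+/+ median on the vertical axis, with 1 point per array (blue Batf+/+, orange Batf-/-, marker shape for the array number) and the mean with SD (n = 3) in black. The Batf-/- arrays of Sh2d1a sit between -1.04 and -0.80, below all other points of the plot, while the receptor genes lie between -0.58 and 0.63.

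Slamf1, Cd84 and Cd48 had small negative differences that did not pass the test after adjustment. Together with Sh2d1a they are the 4 of 7 members with an unadjusted limma p below 0.05, all 4 lower in Batf-/- cells. Over all genes 4.44% were lower at that level and 7.69% differed in either direction. The arrays of the genotypes did not overlap, with Batf-/- lower, in 3 of 7 members (Sh2d1a, Slamf1 and Cd48), against 6.55% of all genes.

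Slamf1 encodes the founding receptor of the family, CD150, which is also a receptor for measles virus in humans. Its levels were 0.09, -0.04 and -0.07 on the Batf+/+ arrays and -0.12, -0.30 and -0.35 on the Batf-/- arrays. Batf-/- arrays were lower on all 3, by 1.19-fold on average (log2 difference -0.25 ± 0.09 SE, 95% interval -0.45 to -0.05, limma adjusted p = 0.436). Its 3 probe sets all had negative differences, -0.31 for 1425569_a_at, -0.27 for 1425570_at and -0.16 for 1425571_at. In 1425570_at and 1425571_at the genotypes did not overlap. In 1425569_a_at Batf-/- array 1, at -0.01, lay within the Batf+/+ range.

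Cd48 encodes a receptor held in the membrane by a lipid anchor, without a tail that could bind SAP. Its single probe set 1427301_at was at 0, -0.09 and 0.02 on the Batf+/+ arrays and at -0.32, -0.35 and -0.09 on the Batf-/- arrays. Batf-/- array 3, at -0.094, lay just below Batf+/+ array 2, at -0.087. The log2 difference was -0.23 ± 0.09 (SE, 95% interval -0.44 to -0.03, limma adjusted p = 0.511).

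Cd84 encodes a homophilic receptor that takes part in contacts of T cells with B cells. Its mean over 2 probe sets was 0.18, -0.10 and -0.01 on the Batf+/+ arrays and -0.05, -0.58 and -0.24 on the Batf-/- arrays, so Batf-/- array 1 lay within the Batf+/+ range. The log2 difference was -0.32 ± 0.14 (SE, 95% interval -0.62 to -0.01, limma adjusted p = 0.620), and without Batf-/- array 2 it was -0.17. The probe sets differed in size and in spread. Probe set 1446505_at gave -0.52 ± 0.22 (SE), with Batf-/- arrays at 0.01, -0.86 and -0.61. Probe set 1422875_at gave -0.11 ± 0.12, with Batf-/- arrays at -0.12, -0.31 and 0.12, and -0.0089 without Batf-/- array 2.

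Slamf6, Ly9 and Slamf7 had differences near 0 or slightly above it. Slamf6 encodes Ly108, a receptor that acts with SAP in follicular helper and NKT cells. Its mean over 3 probe sets was 0.11, -0.03 and -0.005 on the Batf+/+ arrays and -0.07, -0.11 and 0.25 on the Batf-/- arrays. Batf-/- array 3 was the highest and array 2 the lowest of the 6. The log2 difference was -0.002 ± 0.11 (SE, 95% interval -0.24 to 0.24, limma adjusted p = 0.99998). Its probe sets pointed in both directions, at 0.11 for 1420659_at, -0.14 for 1425086_a_at and 0.02 for 1457773_at. Each had its highest Batf-/- value on array 3.

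Ly9 encodes CD229, a homophilic receptor of T and B cells. Its single probe set was at -0.12, 0 and 0.18 on the Batf+/+ arrays and at 0.04, 0.11 and 0.005 on the Batf-/- arrays. All Batf-/- values fell inside the Batf+/+ range, with a log2 difference of 0.03 ± 0.09 (SE, 95% interval -0.18 to 0.24, limma adjusted p = 0.9999).

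Slamf7 encodes a receptor best known from NK and plasma cells. In NK cells it signals through EAT-2, a relative of SAP. Its single probe set was at -0.02, 0.17 and 0 on the Batf+/+ arrays and at -0.01, 0.05 and 0.63 on the Batf-/- arrays. Array 3 alone lay above the Batf+/+ range. The log2 difference was 0.17 ± 0.16 (SE, 95% interval -0.18 to 0.53, limma adjusted p = 0.981), and without Batf-/- array 3 it was -0.03.

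On Batf-/- array 3, the B cell and the monocyte or macrophage markers, of cells that can carry SLAM receptors, also had their highest means. The NK cell, CD8 T cell and NKT or gamma delta T cell markers had theirs on this array as well, at lower means. The mean of 8 measured B cell markers was 0.40 on Batf-/- array 3, against 0.06 and 0.08 on arrays 1 and 2 and -0.06 to 0.06 on the Batf+/+ arrays. Among them Cd22, an inhibitory receptor of B cells named after its value was seen, was at 1.76 there, and at 0.52 and 0.43 on the other Batf-/- arrays. The rest of the list was also named after its values were seen. On Batf-/- array 3, Cd79a, Cd79b and Ms4a1 were at 0.34, 0.47 and 0.34. Fcer2a, Cr2, Blk and Pax5 were at 0.18, 0.13, 0.03 and -0.08 there, and Cr2, Blk and Pax5 were higher on another array. The mean of 7 measured monocyte or macrophage markers was 0.31 on Batf-/- array 3, against -0.18 and -0.08 on arrays 1 and 2 and -0.10 to 0.10 on the Batf+/+ arrays. The means of 5 plasma cell and 6 NK cell markers were 0.08 and 0.17 on it, and 0.12 and 0.14 on Batf-/- array 2. The mean of 6 dendritic cell markers was 0.13 on Batf-/- array 3 and 0.14 on Batf-/- array 2. The means of 2 CD8 T cell and 2 NKT or gamma delta T cell markers were 0.08 and 0.14 on Batf-/- array 3, and -0.08 and 0.09 on Batf-/- array 2. For 7 basophil, mast cell or platelet markers the mean was 0.11 on Batf-/- array 3 and 0.18 on Batf-/- array 2. In 8 lists of markers of other cell types 0 of 43 measured markers were called by limma, where 1.14% of all genes were called in either direction. At an unadjusted p below 0.05 there were 7 of 43, against 7.69% of all genes. Above 0 were 29 of 43, against 9432 of 18193 genes. Of 6 Treg cell markers 0 were called, and 2 had an unadjusted p below 0.05. Of these 6, 4 lay below 0 and 2 above. The genotypes did not overlap in 4 of the 6, in both directions, against 12% of all genes. Among them Ikzf2, which encodes the Treg cell factor Helios and is named after its value was seen, was at 0.007, 0.10 and -0.15 on the Batf+/+ arrays and at -0.41, -0.67 and -0.47 on the Batf-/- arrays (limma adjusted p = 0.0526). Il2ra, also named after its value was seen, was the other with an unadjusted p below 0.05 and was higher. It was at 0.07, 0 and 0.03 on the Batf+/+ arrays and at 0.29, 0.25 and 0.19 on the Batf-/- arrays (limma adjusted p = 0.394). Whether a marker was at or near background in level is not known from centred values. The part of other cell types in the values of Slamf7 and Slamf6 was not tested. For Sh2d1a the difference was -1.03 without Batf-/- array 3.

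**Figure D2:**
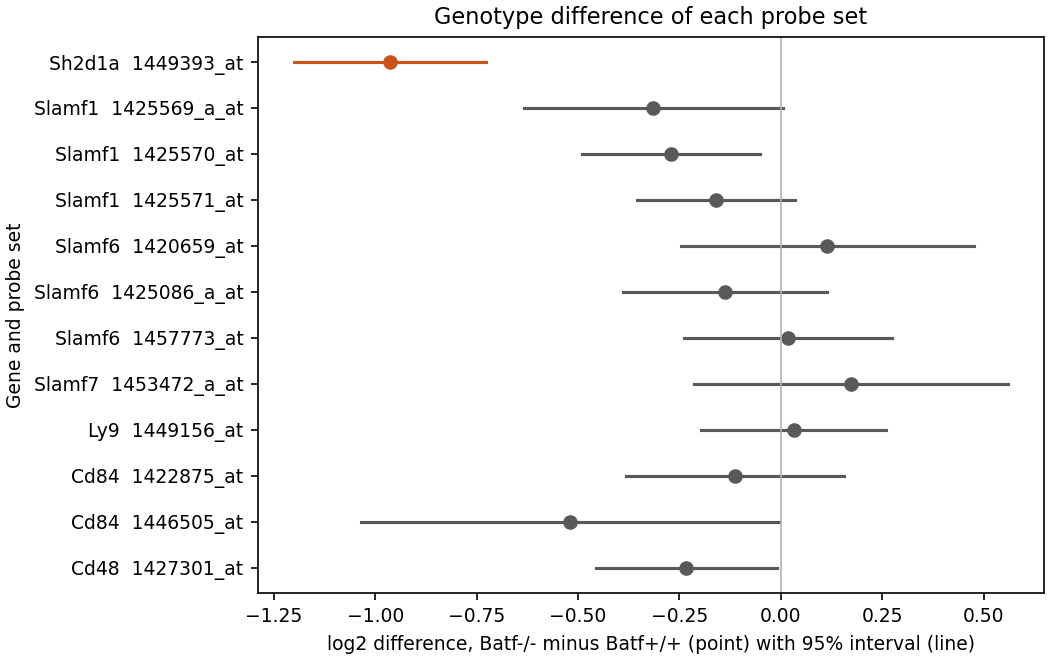
Log2 difference (Batf-/- minus Batf+/+) of each of the 12 member probe sets on the horizontal axis, as a point with its 95% interval as a line, with the probe set past an adjusted p of 0.05 in orange. The Sh2d1a probe set lies at -0.96, and the other 11 lie between -0.52 and 0.17.

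Among the 12 probe sets tested one by one, 1 was called lower and 0 higher, where 0.402% of all 45037 probe sets were called lower and 0.129% higher. The genotypes did not overlap, with Batf-/- lower, in 4 of 12, against 5.69% of all probe sets. The smallest absolute log2 difference of any called gene was 0.38, so differences of the size seen in Slamf1, Cd84 and Cd48 lay below every difference called with these arrays. The 95% intervals of all 6 receptor genes excluded the difference of Sh2d1a. Taken on its own, the Cd84 probe set 1446505_at had an interval of -1.03 to -0.004, which contained that difference.

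Sh2d1a and each receptor were set against each other on the same arrays. The difference between SAP and Slamf6, taken on each array, was 0.06, -0.03 and 0.005 on the Batf+/+ arrays and -0.88, -0.93 and -1.05 on the Batf-/- arrays. It shifted by -0.96 without Batf. Against Cd84 the shift was -0.65, and against Slamf7 it was -1.14. The shifts from Slamf1, Cd48 and Ly9 were -0.72, -0.73 and -0.996. In each of the 6 pairs the 3 Batf-/- arrays lay below the 3 Batf+/+ arrays. All 6 pairs use the same Sh2d1a values, which did not overlap between genotypes on their own, so they are not 6 separate results. The exact two-sided permutation test gave p = 0.1 in each pair (adjusted over the 6 pairs, 0.1). That is the smallest p that 3 arrays against 3 can give, so the test cannot decide whether SAP shifted against a receptor.

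The receptor genes lie next to each other on mouse chromosome 1, in the order Cd244a, Ly9, Slamf7, Cd48, Slamf1, Cd84 and Slamf6, by the order of genes in RefSeq's annotation of GRCm38.p6. Cd48, Slamf1 and Cd84, the receptors with an unadjusted p below 0.05, are neighbours in that order. The 5 measured genes on either side of the cluster, from Nectin4 to Itln1 and from Vangl2 to Pex19, had log2 differences between -0.14 and 0.15. Of these 10, 0 were called by limma, where 1.14% of all genes were called in either direction. At an unadjusted p below 0.05 there were 0 of 10, against 7.69% of all genes, and the lowest adjusted p was 0.899. Sh2d1a lies on the X chromosome, where its nearest measured neighbours are Stag2, a subunit of cohesin, and Tenm1, a teneurin. The 4 measured genes around it, Xiap, Stag2, Tenm1 and Dcaf12l1, had differences between -0.08 and 0.11, with 0 called by limma and 0 at an unadjusted p below 0.05. The genotypes did not overlap in 1 of these 4, Tenm1, with Batf-/- higher. Over all genes 12% did not overlap in either direction. Of 618 measured X-linked genes 4 were called lower and 1 higher (0.809%). Transcripts that depend on sex, named after their values were seen, had log2 differences of -0.05 for Xist, which silences an X chromosome, and between 0.09 and 0.11 for the Y-linked Eif2s3y, Kdm5d and Uty, with 0 of 4 called. In Kdm5d and Uty the genotypes did not overlap, with Batf-/- higher, and in Xist and Eif2s3y they did.

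**Figure D3:**
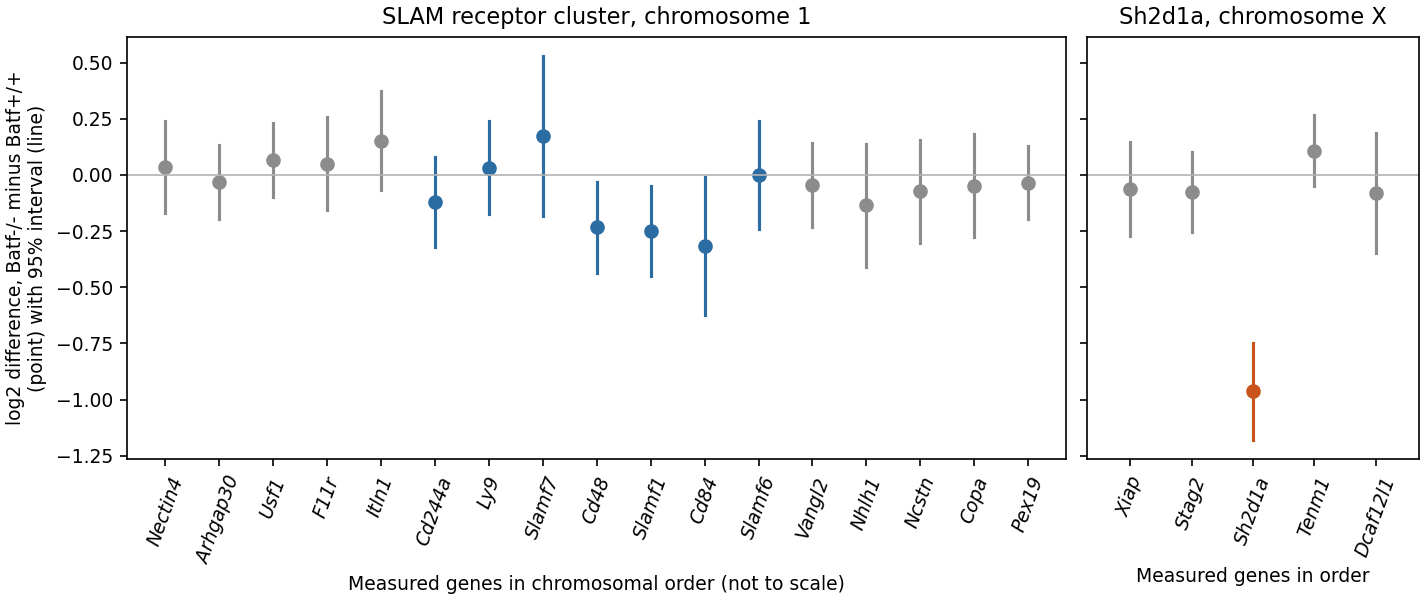
Log2 difference (Batf-/- minus Batf+/+) with its 95% interval on the vertical axis for measured genes in chromosomal order, not to scale, around the SLAM receptor cluster (left; receptors blue, neighbours grey) and around Sh2d1a (right; orange where the adjusted p is below 0.05). Sh2d1a stands at -0.96 between neighbours at -0.07 and 0.11, and the receptors range from -0.32 to 0.17.

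Batf is a basic leucine zipper factor that pairs with Jun proteins on AP-1 elements and, with Irf4, on composite elements. RefSeq promoter windows of GRCm38.p6, from 250 bases before to 50 after a gene's start, were matched for 5 of 7 members, and not for Sh2d1a and Ly9. The AP-1 letters TGANTCA, which read the same on both strands, occurred in 2 of these 5 windows, in Slamf7 and Cd84, and in 7.81% of 32851 windows of all genes. The stretches that hold them are shown because they are the places in the matched windows where the letters occur, with those letters in capitals, 5′ to 3′ on the gene's strand.
Slamf7: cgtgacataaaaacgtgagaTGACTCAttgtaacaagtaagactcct
Cd84: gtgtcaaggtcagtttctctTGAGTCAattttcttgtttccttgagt
The Slamf7 stretch is chr1:171649015-171649061 on the minus strand, with the letters 42 to 36 bases before the gene's start. The Cd84 stretch is chr1:171839448-171839494 on the plus strand, with the letters 229 to 223 bases before the start. Neither gene was called, and a match of letters is a description and not a binding site. The CRE letters TGACGTCA, another site of basic leucine zipper factors, also read the same on both strands and cannot contain the AP-1 letters. They were in 0 of the 5 windows and in 1.79% of all windows.

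The other genes of the family and its ligands had log2 differences between -0.12 and 0.15. Of 4 measured, 0 were called by limma, where 1.14% of all genes were called in either direction. At an unadjusted p below 0.05 there were 0 of 4, against 7.69% of all genes. The median log2 difference was -0.04. Cd244a, which encodes the CD48 receptor 2B4, differed by -0.12 ± 0.09 on the log2 scale (SE, limma adjusted p = 0.932), and Cd2, the other receptor for CD48, differed by -0.06 ± 0.08 (adjusted p = 0.9999). Slamf8 and Slamf9, family members with short tails known from myeloid cells, were at -0.02 ± 0.11 and 0.15 ± 0.11. The relatives of SAP, Sh2d1b1 and Sh2d1b2, share 1 probe set annotated to both and were left out.

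The genes listed as acting with or downstream of SAP and the SLAM receptors were mostly kinases, phosphatases and adaptors. Of 20 measured, 0 were called by limma, where 1.14% of all genes were called in either direction. At an unadjusted p below 0.05 there were 3 of 20, against 7.69% of all genes. Below 0 were 16 of 20, against 8761 of 18193 genes. The median log2 difference was -0.06, against 0.0047 over all genes. Fyn, the kinase that SAP recruits, was at 0.08, -0.002 and -0.08 on the Batf+/+ arrays and at -0.19, -0.27 and -0.21 on the Batf-/- arrays. The 3 genes with an unadjusted p below 0.05 were Fyn and, named after their values were seen, the kinase Fgr (-0.25 ± 0.11 SE) and the transcription factor Gata3 (-0.33 ± 0.14), the lowest of the list. The genotypes of Fyn did not overlap, as in 12% of all genes in either direction, and its log2 difference was -0.23 ± 0.08 (SE, 95% interval -0.40 to -0.05, limma adjusted p = 0.392). Prkcq, a protein kinase C downstream of Fyn in this pathway, had one of 0.05 ± 0.08. Inpp5d encodes the lipid phosphatase SHIP-1 and Ptpn6 the tyrosine phosphatase SHP-1, both of which SLAM tails can bind. They had differences of -0.02 ± 0.07 and -0.003 ± 0.09.

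Of 12 measured genes of follicular helper and NKT cells, the cells in which SAP is needed, 3 were called lower and 1 higher. The shares over all genes were 0.83% and 0.313%. At an unadjusted limma p below 0.05 there were 7 of 12, against 7.69% of all genes. The genotypes did not overlap in 6 of 12, in both directions, against 12% of all genes. The 12 genes had a median log2 difference of -0.30, against 0.0047 over all genes. The choice of the 12 genes was made with results of these arrays known, so the counts are no independent evidence. Icos, a costimulatory receptor of follicular cells, was at 0.02, -0.06 and 0.05 on the Batf+/+ arrays and at -0.90, -1.27 and -1.01 on the Batf-/- arrays (limma adjusted p = 0.00153). Its 3 probe sets gave -1.11, -1.07 and -1.02. Pdcd1, which encodes the inhibitory receptor PD-1, was at -0.04, 0 and 0.10 against -1.06, -1.16 and -0.84 (adjusted p = 0.00138). In both genes, as in Sh2d1a, all Batf-/- arrays lay below all Batf+/+ arrays.

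Tox2, a transcription factor of follicular helper cells, fell (log2 difference -1.15 ± 0.08 SE, limma adjusted p = 0.000202), with probe sets at -2.09 and -0.21. Il21, a cytokine of follicular helper cells, was the member that rose, at -0.06, 0.29 and 0.05 on the Batf+/+ arrays and 1.195, 1.24 and 1.10 on the Batf-/- arrays (adjusted p = 0.00138), from probe sets at 0.32 and 1.86. Bcl6, the regulator that defines follicular helper cells, differed by -0.41 ± 0.09 (limma adjusted p = 0.1003), with all Batf-/- arrays, between -0.51 and -0.36, below the Batf+/+ arrays. Cxcr5, the receptor for entry into follicles, by -0.26 ± 0.18 (adjusted p = 0.919), and Zbtb16, which encodes the NKT cell factor PLZF, by 0.16 ± 0.09 (adjusted p = 0.806).

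**Figure D4:**
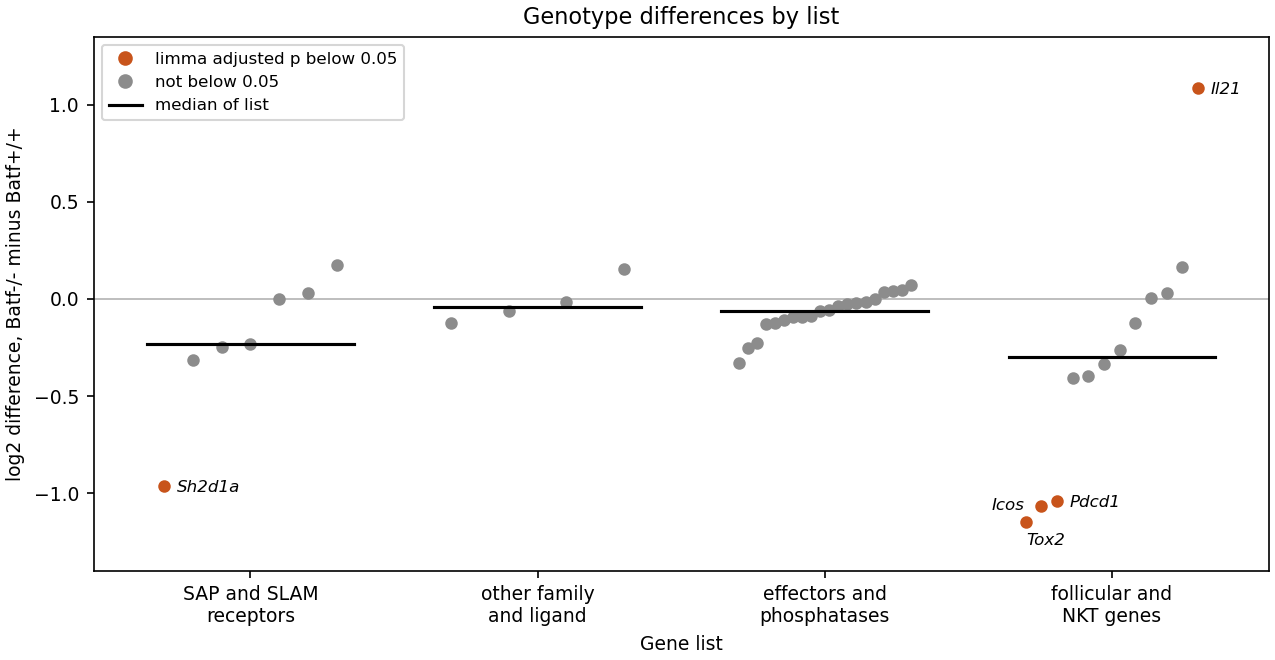
Log2 difference (Batf-/- minus Batf+/+) of each gene on the vertical axis, by list on the horizontal axis, with genes past a limma adjusted p of 0.05 in orange and named, other genes in grey and the median of each list as a black line. Sh2d1a lies at -0.96 apart from the receptors, and the effectors, Gata3 lowest, lie between -0.33 and 0.07.

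Genes with the pattern most like that of Sh2d1a were those with the smallest root mean square difference from it over the 6 arrays. They were Lgalsl, a galectin-like gene (0.0673 log2 units), Atp6v0d2, a subunit of the proton pump of vesicles (0.0778), and Jazf1, a zinc finger gene (0.0987). Their log2 differences between genotypes were -0.97, -0.89 and -0.79.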

How the data were processed

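RNA of 6 Treg cell samples was hybridised to 3' expression arrays, 1 per sample. The deposited log2 values were made by RMA, per the submitters' processing notes. Neither a version nor a log base is given there, and base 2 was assumed. In all 45101 probe sets the median of the 3 Batf+/+ arrays is exactly 0, a centring that no label describes. It keeps differences between genotypes and removes absolute levels, so no filter on dim probe sets and no signal over background could be had.

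After 64 controls were left out, 34945 probe sets had 1 gene in the platform annotation, 932 had several and 9160 had none listed. A gene was the mean of its probe sets. Genotypes were compared with limma 3.58.1 in R 4.3.3 (lmFit, eBayes, genotype as the only term, Benjamini-Hochberg adjustment over 18193 genes or 45037 probe sets), tested on simulated data. Differences within arrays were tested by exact permutation (scipy 1.17.1).

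Members and lists were chosen with earlier results of these data known. Named genes are Batf, all members, all other SLAM family genes, 4 fixed effectors (Fyn, Prkcq, Inpp5d, Ptpn6), Bcl6, Cxcr5 and Zbtb16, called genes of the lists and neighbours (up to 5 follicular and NKT genes), and the 3 genes most like each called member. Neighbours are also listed for their order, and other genes are marked as named after their values were seen. Across genes, the deviations of Batf+/+ and Batf-/- arrays of the same number correlated at 0.407, 0.154 and 0.413. All exceed 0.1, so the title numbers were read as a possible pairing of the arrays, although the labels do not explain them. The main fit and the permutation test left this pairing out, and only the replicate block used it. Alternatives were the median of probe sets, probe sets without shared-sequence suffixes, equal array medians, quantile normalization, array weights, a replicate block, each probe set on its own and each array left out.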

Additional observations from a re-analysis of the deposited data

How the results depend on the processing

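Sh2d1a was lower past the threshold in all 13 alternatives tried, the test of every probe set included, between -1.03 and -0.74 (quantile normalization), with adjusted p values from 0.000920 to 0.0308. With the replicate block, which the numbers in the titles allow, its adjusted p was 0.00352, and that block changed no call among the members. Under the block the limma adjusted p was 0.142 for Slamf1, 0.135 for Cd84 and 0.223 for Cd48. In the main fit these were 0.436, 0.620 and 0.511. For Slamf6, Slamf7 and Ly9 the block gave values between 0.702 and 0.998. The count of members stayed at 1 lower and 0 higher in every alternative. Among probe sets, 1449393_at of Sh2d1a lost its call after quantile normalization (-0.74, adjusted p = 0.0652) and without Batf+/+ array 1 (-0.90, adjusted p = 0.0554). The values, centred on the Batf+/+ median, had SDs of 0.12 to 0.17 on Batf+/+ arrays and 0.24 to 0.26 on Batf-/- arrays. Quantile normalization forces the same spread on all arrays. How much of the smaller Sh2d1a difference came from this was not tested. The sign of receptors near 0 turned. Slamf6 was at 0.066 without probe sets of shared sequence and between -0.11 and 0.066 with 1 array left out. With 1 array left out, its probe set 1420659_at ranged from -0.063 to 0.204 and its probe set 1457773_at from -0.056 to 0.11, which was -0.00074 after quantile normalization. Cd84 ranged from -0.44 to -0.17 with 1 array left out, and without Batf-/- array 2 it was no longer the receptor with the most negative difference (Slamf1 -0.23, Cd48 -0.18). Ly9 (1449156_at) ranged with 1 array left out from -0.037 to 0.11 and Slamf7 (1453472_a_at) from -0.029 to 0.29. All of these were uncalled, and the cause was not tested. Over all genes, 151 were lower and 57 higher, against 58 and 22 after quantile normalization, 91 higher under the replicate block, 78 and 31 when Batf+/+ array 1 was left out, 73 and 32 without Batf+/+ array 2, 32 higher without Batf+/+ array 3, 36 higher without Batf-/- array 1 and 94 lower without Batf-/- array 2. A filter on dim probe sets was not run, because centred values carry no level.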
